A study of Mus musculus with 12 samples.

Results

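The genes examined were 38 members of the TGF-beta and BMP signalling pathways: the TGF-beta ligands, the proteins that hold them in a latent form, the BMP, activin and GDF ligands, their receptors, the Smads, secreted antagonists and nuclear corepressors. They were taken as a named list and matched by symbol to Ensembl identifiers, and all 38 were present among the 38293 genes of both deposited count tables. The libraries came from mouse hearts on the C57Bl/6J background, with 3 animals in each of 4 groups. WT sham hearts had sham surgery without ischaemia. WT IR hearts were taken 14 days after ischaemia-reperfusion (IR), in which the left anterior descending artery was ligated for 1 h and then released. Zeb2 cTg IR hearts carried αMHC-Cre and Rosa26-LoxStopLoxZeb2, so that the Myh6 promoter drives Cre and thereby Zeb2 in cardiomyocytes, and Zeb2 WT IR hearts came from wild-type littermates. Both of these groups had the same injury and were also taken at 14 days, so that no uninjured Zeb2 group was among the samples. The mice were 8 to 9 weeks old according to the methods, which name males in 1 passage and both sexes in another, and the tissue is the left ventricle in the sample records, the infarct with its border zone in the design text and the remote zone in the methods, so the distance of the tissue from the infarct cannot be told.

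TGF-beta ligands are secreted in a latent form that is bound to latent TGF-beta binding proteins of the matrix and must be released before they can signal. The free ligand joins type II and type I receptors, which phosphorylate Smad2 and Smad3, whereas BMP ligands act through other receptors on Smad1, Smad5 and Smad9, and both arms share Smad4. In the injured heart this pathway is known for turning fibroblasts into matrix-producing myofibroblasts, and Smad6, Smad7, Ski and Skil are the brakes that it carries within the cell.

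The libraries held 20215781 to 36816818 gene counts, of which 60.6% to 73.5% fell on the mitochondrial genome, and the members together received between 10443 and 35757 counts per library. Levels below are CPM, counts per 1000000 counts after TMM scaling, in which 1 CPM stood for 17.2 to 37.8 counts. Zeb2, the gene that checks the labels, had 54.7, 57.8 and 67.0 CPM in Zeb2 WT IR, whereas it had 55.5, 56.9 and 58.7 CPM in the other group of that table. The log2 fold change was -0.07 ± 0.12 (standard error; edgeR adjusted p = 0.750), so those libraries are named here as the libraries labelled Zeb2 cTg IR. All 22 cardiomyocyte markers examined were detected in both tables, as the labelled tissue requires. In these bulk samples fewer cells of a type and less RNA per cell cannot be told apart.

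In WT IR against WT sham, the genes for Tgfb2, Tgfb3, their receptors Tgfbr1 and Tgfbr2, the matrix protein Ltbp2 and the secreted proteins Fst and Fstl1 were higher after injury, and the inhibitory Smad7 and the co-receptor Eng were lower. Of 35 members with enough counts to be tested, 12 rose, 2 fell and 21 did not pass the threshold (edgeR's quasi-likelihood test, adjusted p under 0.05 over all genes). Over all 13756 genes tested, 11.0% rose and 9.74% fell. The WT IR libraries lay above every WT sham library for 17 members, against 20.5% of all genes, and below every one of them for 2, against 19.3% of all genes. The median log2 fold change of the members was 0.22 and that of all genes 0.01. Size factors taken from the cardiomyocyte markers alone moved the median of all genes to 0.29, and the members then split into 18 higher and 0 lower. Leaving out WT sham replicate 1, WT sham replicate 2 or WT IR replicate 2 brought the 14 members down to 8, 6 and 8. Over all fits that left out a library the count lay between 6 and 17. The shares of all genes that passed in these other fits are not given here. The members were not tested as a list against other genes, so the counts stand beside the shares of all genes only as a description.

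**Figure D1:**
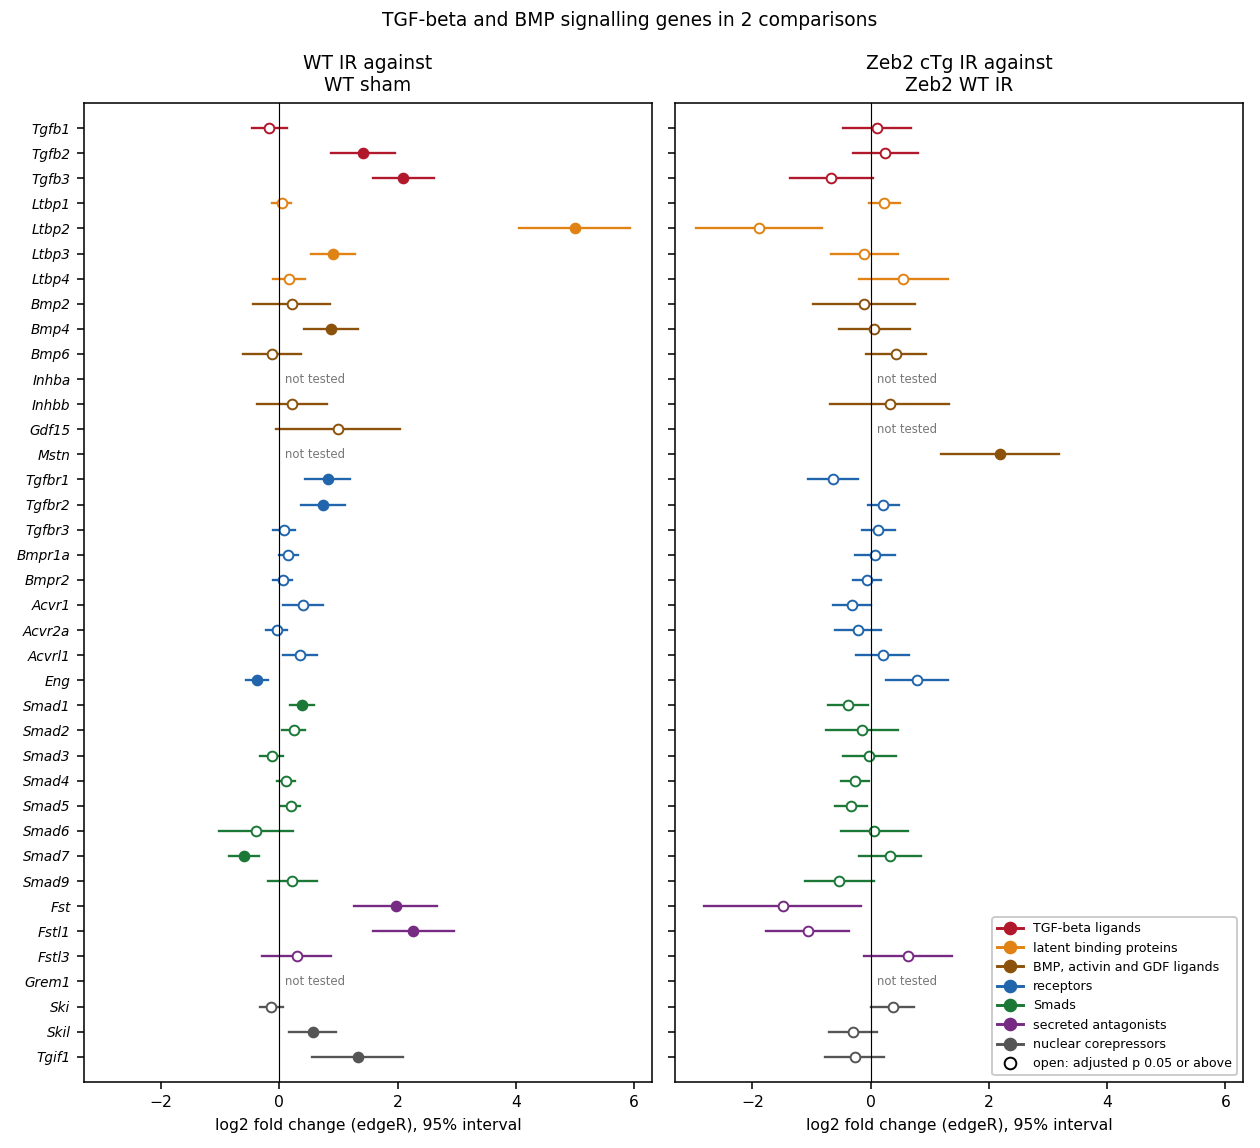
Log2 fold change of each member in WT IR against WT sham (left) and in the libraries labelled Zeb2 cTg IR against Zeb2 WT IR (right), with its 95% interval from edgeR, coloured by role. Filled points passed the threshold, 14 on the left with Ltbp2 farthest to the right at 4.997, and only Mstn on the right.

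The TGF-beta ligands went apart. Tgfb3 (ENSMUSG00000021253, chr12:86056745-86079041, GRCm38) had 7.60, 5.46 and 5.99 CPM in WT sham and 18.9, 26.2 and 36.7 CPM in WT IR. Every injured library was above every sham library, a 4.28-fold rise with a log2 fold change of 2.10 ± 0.23 (standard error, edgeR adjusted p = 0.00208). Tgfb2 had 3.33, 3.43 and 3.14 CPM in WT sham and 5.91, 8.54 and 12.3 CPM in WT IR. It rose 2.68-fold (log2 1.42 ± 0.24, edgeR adjusted p = 0.00672), and the sham libraries differed little among themselves whereas the injured ones spread widely. Tgfb1, the ligand most often named in fibrosis, had 4.43, 4.02 and 4.25 CPM in WT sham and 3.28, 3.91 and 4.10 CPM in WT IR. These groups overlapped, and the log2 fold change was -0.17 with a 95% interval from -0.46 to 0.13 (edgeR adjusted p = 0.387). Tgfb2 and Tgfb3 passed the threshold in all 6 fits that left out a library.

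Per kb of exon, the summed level of the 3 ligand genes was 3.29 ± 0.366 CPM per kb (SD, n = 3) in WT sham and 10.3 ± 3.29 CPM per kb (SD, n = 3) in WT IR. Tgfb3 held 60.7%, 53.7% and 56.1% of it in the sham libraries and 77.0%, 77.5% and 78.6% in the injured ones. The share of Tgfb1 went from 23.7%, 26.5% and 26.7% to 8.98%, 7.76% and 5.90%, while that of Tgfb2 lay between 14.1% and 19.7% in all 6 libraries. Tgfb3 was thus the main TGF-beta ligand transcript in both groups on this scale, and by a wider margin after injury.

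**Figure D2:**
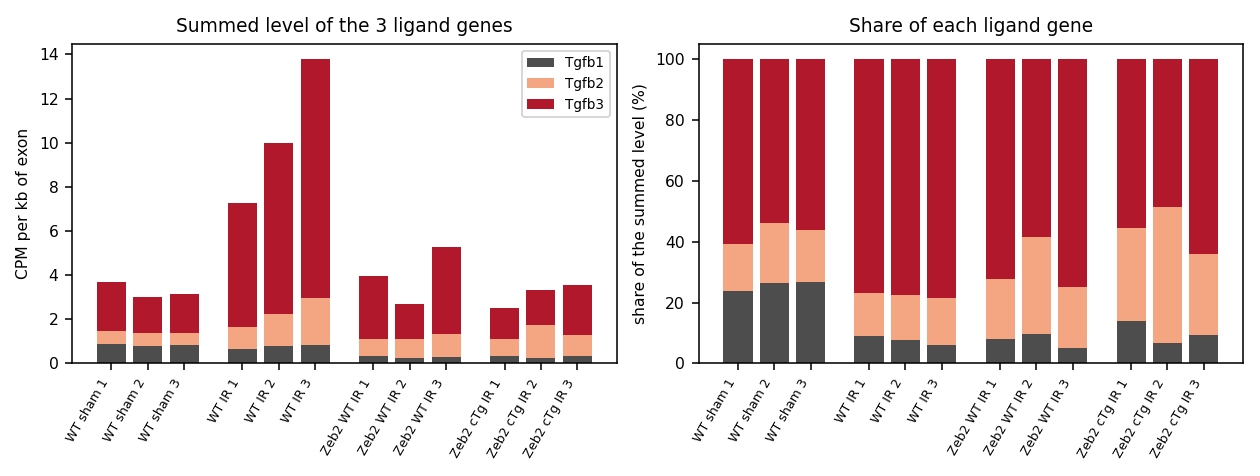
Summed level of Tgfb1, Tgfb2 and Tgfb3 in CPM per kb of exon (left, stacked bars) and the share of each in percent (right), 1 bar per library. The Tgfb3 share lies between 77.0% and 78.6% in WT IR and between 53.7% and 60.7% in WT sham.

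Of the latent TGF-beta binding proteins, Ltbp2 changed most and was also the member with the largest fold change. Ltbp2 (ENSMUSG00000002020, chr12:84783212-84876532) had 1.89, 1.13 and 0.873 CPM in WT sham and 22.5, 43.1 and 62.7 CPM in WT IR, a 31.9-fold rise (log2 4.997 ± 0.42, edgeR adjusted p = 0.000912). Unlike its relatives it is known as a protein of matrix microfibrils that does not bind latent TGF-beta. Ltbp3, which does bind it, had 11.9, 10.03 and 10.2 CPM in WT sham and 15.9, 18.7 and 26.1 CPM in WT IR (log2 0.91 ± 0.17, edgeR adjusted p = 0.00878). Without WT sham replicate 2 its adjusted p was 0.0599. Ltbp1 stayed between 35.3 and 38.7 CPM in all 6 libraries (log2 0.04, 95% interval -0.12 to 0.19). Ltbp4 lay between 69.3 and 102 CPM with overlapping groups (log2 0.17, edgeR adjusted p = 0.335), and after GC correction its value was 0.59 (edgeR adjusted p = 0.0122).

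The promoters of Tgfb1, which did not pass the threshold, and of Tgfb2 and Ltbp2, which did, are shown so that their letters can be compared, with that of Mstn, the member that passed in the Zeb2 table. Each run covers the bases from 250 to 51 before the RefSeq start (GRCm38.p6, 5′ to 3′ on the strand of the gene), and capitals mark CAGAC, the core of a Smad box, GGCGCC, a GC-rich element bound by Smad1 and Smad5, and CACCTG, the E-box of Zeb proteins, each on either strand. The runs lie at chr7:25686752-25686951 (plus strand), chr1:186706040-186706239 (minus), chr12:84876542-84876741 (minus) and chr1:53061390-53061589 (plus).
Tgfb1: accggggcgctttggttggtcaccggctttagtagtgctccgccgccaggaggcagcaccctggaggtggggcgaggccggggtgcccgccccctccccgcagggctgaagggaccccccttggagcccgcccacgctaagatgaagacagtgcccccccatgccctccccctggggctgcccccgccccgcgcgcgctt
Tgfb2: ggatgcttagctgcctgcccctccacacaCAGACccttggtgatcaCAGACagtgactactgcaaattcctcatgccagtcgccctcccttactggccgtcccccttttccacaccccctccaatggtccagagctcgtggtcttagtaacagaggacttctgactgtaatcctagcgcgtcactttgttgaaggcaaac
Ltbp2: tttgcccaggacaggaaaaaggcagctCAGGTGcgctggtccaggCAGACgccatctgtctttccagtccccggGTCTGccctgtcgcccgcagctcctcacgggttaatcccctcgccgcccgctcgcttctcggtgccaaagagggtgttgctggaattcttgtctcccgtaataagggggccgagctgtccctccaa
Mstn: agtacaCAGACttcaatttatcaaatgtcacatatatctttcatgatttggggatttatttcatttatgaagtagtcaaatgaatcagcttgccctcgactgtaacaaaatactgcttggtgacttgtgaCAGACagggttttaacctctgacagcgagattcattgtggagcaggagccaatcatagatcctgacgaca

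The Tgfb2 run held 2 matches to CAGAC and the Ltbp2 run 2, with 1 match to the E-box, whereas the Tgfb1 run held none of the 3 motifs. This contrast came with the genes chosen for printing. Over the same bases Ltbp3 and Tgfbr2, which passed, held 1 CAGAC each, but Fstl1 and Smad1, which also passed, held none of the 3 motifs. Ltbp1, which did not pass, held CAGAC in each of its windows. Such matches are frequent. Of the 32851 windows of 300 bases in the RefSeq table, 49.59% held CAGAC, 11.87% GGCGCC and 20.21% CACCTG. A window was found for 29 of the 38 members, 40 windows in all as some genes have several that may overlap, and 47.5%, 25% and 22.5% of these held the motifs. A match is a string of letters, and no binding was measured.

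The BMP, activin and GDF ligands were low, and 1 of the 5 that could be tested passed. Bmp4, a ligand of the BMP arm, had 1.59, 1.29 and 1.98 CPM in WT sham and 2.41, 3.04 and 3.24 CPM in WT IR (log2 0.87 ± 0.20, edgeR adjusted p = 0.0171). Without WT sham replicate 1, WT sham replicate 2 or WT IR replicate 2 its adjusted p rose to at most 0.097. Bmp2 (log2 0.21), Bmp6 (-0.13) and the activin subunit Inhbb (0.22) overlapped between the groups, with edgeR adjusted p of 0.640, 0.701 and 0.594. Gdf15, a stress-induced cytokine, had 0.416, 0.245 and 0.349 CPM in WT sham and 0.562, 0.370 and 1.12 CPM in WT IR, from 6 to 30 counts per library, and did not pass (log2 0.98 ± 0.47, edgeR adjusted p = 0.161). Inhba, with 1 to 19 counts, and Mstn, with 1 to 3 counts per library, were too low to be tested.

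Both signalling receptors of TGF-beta rose. Tgfbr1, the type I receptor, had 17.7, 16.8 and 20.1 CPM in WT sham and 24.3, 30.2 and 41.5 CPM in WT IR (log2 0.82 ± 0.17, edgeR adjusted p = 0.0129). Tgfbr2, the type II receptor, had 28.9, 30.5 and 26.2 CPM in WT sham and 35.2, 48.8 and 59.7 CPM in WT IR (log2 0.74 ± 0.16, edgeR adjusted p = 0.0152). Neither gene overlapped between the groups, but Tgfbr1 passed in 4 of 6 fits without a library and Tgfbr2 in 2, with adjusted p of at most 0.0774 without WT sham replicate 1 or 2 for Tgfbr1, and at most 0.067 without any 1 sham library or WT IR replicate 2 for Tgfbr2. Eng, a co-receptor best known from endothelial cells, fell from 37.7, 43.5 and 36.9 CPM to 31.5, 30.3 and 29.1 CPM (log2 -0.38 ± 0.08, edgeR adjusted p = 0.0153). With size factors from the cardiomyocyte markers Eng stood at -0.09 (edgeR adjusted p = 0.545), and without WT sham replicate 2 or WT IR replicate 2 its adjusted p was at most 0.083. The summed level of 11 endothelial markers lay between 545 and 576 CPM in WT sham and between 462 and 546 CPM in WT IR, and none of the 11 passed the threshold. The receptors of BMP and activin did not pass: Bmpr1a was at 65.7 to 70.8 CPM in sham and 75.2 to 77.6 CPM after injury (log2 0.15), and Acvrl1, a type I receptor of endothelial cells, was at 0.35, both with groups that did not overlap. Bmpr2 (0.06), Acvr1 (0.40), Acvr2a (-0.05) and the TGF-beta co-receptor Tgfbr3 (0.08) had overlapping groups.

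Of the 8 Smads, 1 rose and 1 fell. Smad7, the inhibitory Smad that TGF-beta itself is known to induce, fell from 7.75, 7.02 and 7.57 CPM to 4.37, 5.05 and 5.30 CPM (log2 -0.60 ± 0.11, edgeR adjusted p = 0.00909). It passed in all 6 fits without a library, and with the cardiomyocyte marker size factors it stood at -0.31 (edgeR adjusted p = 0.222). Smad1, of the BMP arm, rose from 8.32, 8.19 and 8.38 CPM to 10.2, 11.1 and 11.2 CPM (log2 0.38 ± 0.09, edgeR adjusted p = 0.0167), and without any 1 sham library or WT IR replicate 2 its adjusted p was at most 0.0892. Smad2 (log2 0.24), Smad5 (0.19) and the shared Smad4 (0.11) were higher in all injured libraries than in all sham libraries but did not pass, with edgeR adjusted p of 0.0852, 0.0822 and 0.276. Smad3 (-0.13) and Smad9 (0.22) overlapped between the groups. Smad6, which inhibits the BMP arm, had 2.84, 3.56 and 2.50 CPM in WT sham and 1.78, 1.69 and 3.54 CPM in WT IR (log2 -0.39, 95% interval -1.02 to 0.24), and only WT IR replicate 3 stood among the sham values.

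The secreted antagonists gave the other large changes. Fstl1, a secreted glycoprotein of the follistatin family that cardiac fibroblasts are known to make, had 61.0, 39.1 and 45.1 CPM in WT sham and 133, 220 and 345 CPM in WT IR. It rose 4.81-fold (log2 2.27 ± 0.31, edgeR adjusted p = 0.00383). Fst, follistatin, which binds activins, rose 3.91-fold from 0.378, 0.399 and 0.466 CPM to 1.06, 1.77 and 2.01 CPM (log2 1.97 ± 0.31, edgeR adjusted p = 0.0053), on 8 to 67 counts per library. Both passed in all 6 fits without a library. Fstl3 overlapped between the groups (log2 0.29, edgeR adjusted p = 0.448), and the BMP antagonist Grem1 had 0 counts in all 12 libraries.

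Of the nuclear corepressors, Tgif1 rose from 1.66, 1.01 and 1.63 CPM to 1.94, 3.65 and 5.03 CPM (log2 1.32 ± 0.34, edgeR adjusted p = 0.0259). Skil had 29.2, 27.2 and 24.3 CPM in WT sham and 29.8, 37.4 and 52.7 CPM in WT IR and lay at the threshold itself (log2 0.57 ± 0.18, edgeR adjusted p = 0.04999). For both genes WT IR replicate 1 stood just above the sham libraries, and both passed in only 1 of 6 fits that left out a library, the fit without WT IR replicate 1, with adjusted p in the others of at most 0.132 for Tgif1 and 0.159 for Skil. Ski overlapped between the groups (log2 -0.13, edgeR adjusted p = 0.300).

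**Figure D3:**
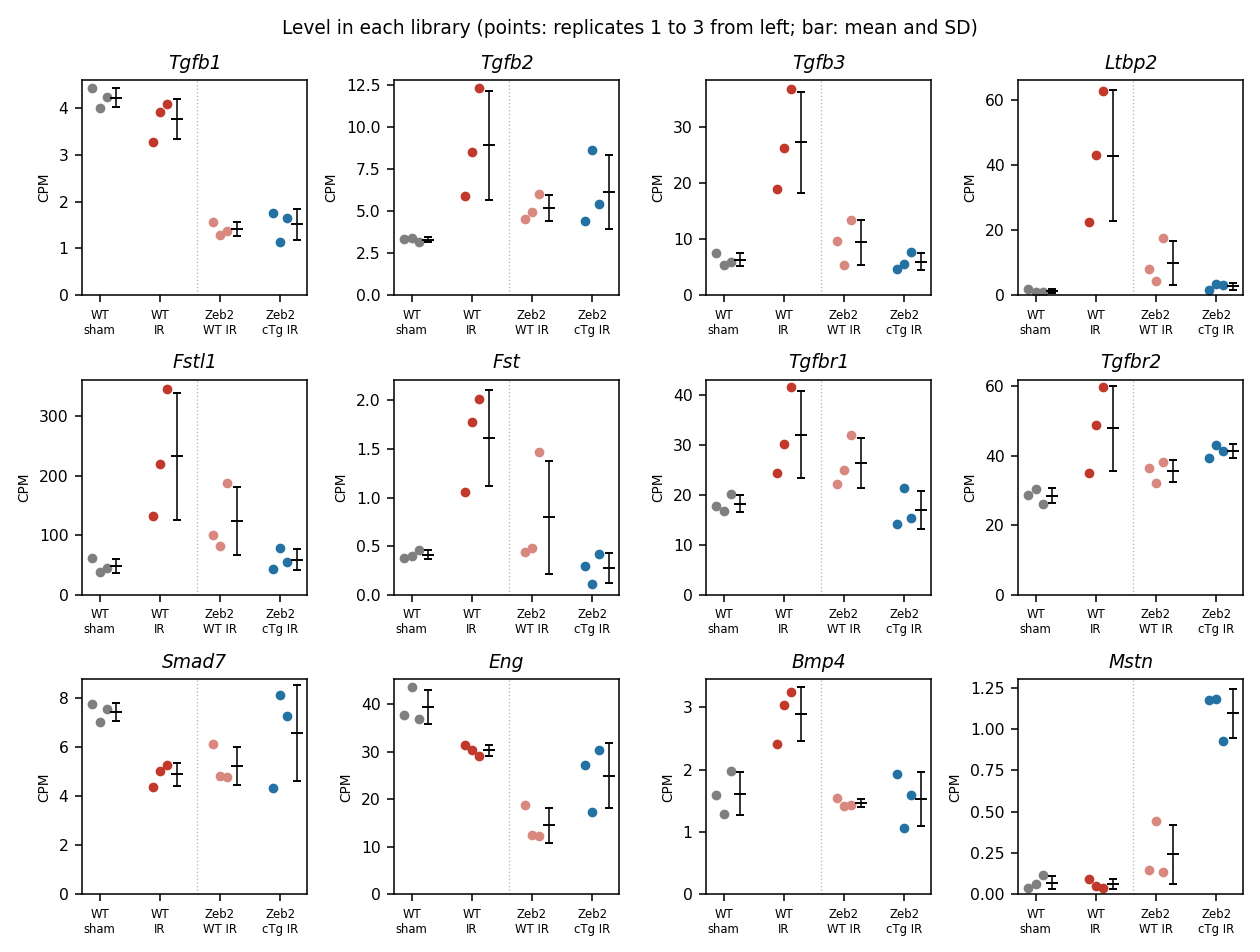
Level of 12 members in CPM in each library, with replicates 1 to 3 from left to right in each group and the mean with its SD beside them. The dotted line separates the tables, which were normalized separately. WT IR replicate 3 is the highest injured library of its table for Tgfb2, Tgfb3, Ltbp2, Fstl1, Fst, Tgfbr1, Tgfbr2 and Bmp4, and the 3 libraries labelled Zeb2 cTg IR have the highest Mstn levels.

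The injured WT hearts did not form an even group. For all 12 members that rose, WT IR replicate 1 had the lowest and WT IR replicate 3 the highest injured level. The summed level of 13 fibroblast markers took the same order, with 2243, 3170 and 4869 CPM in WT IR replicates 1, 2 and 3 against 926 to 1317 CPM in WT sham, and 11 of the 13 markers rose. The sum of 11 activated fibroblast markers was 515, 975 and 1557 CPM against 123 to 224 CPM, with 10 of them higher and 1 lower. The sum of 13 macrophage markers was 244 to 465 CPM against 167 to 186 CPM, with 10 higher, whereas the cardiomyocyte markers summed to 54252 to 69854 CPM against 70117 to 77073 CPM. Of the remaining lists, smooth muscle and pericyte markers summed to 1121 to 1304 CPM against 1252 to 1335 CPM, T and B cell markers to 1.53 to 3.36 CPM against 1.28 to 1.55 CPM, and epicardial and mesothelial markers to 3.78 to 4.92 CPM against 5.18 to 8.74 CPM. The part of these cell types in the members' changes was not tested.

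When each level was divided by the fibroblast marker sum of its own library, a scale chosen after the values had been seen, 3 of the 12 members stayed higher in every WT IR library than in every WT sham library. Per 1000 CPM of fibroblast markers, Ltbp2 went from 1.44, 1.22 and 0.889 CPM to 10.03, 13.6 and 12.9 CPM. Fstl1 went from 46.3, 42.2 and 45.9 CPM to 59.4, 69.4 and 70.9 CPM, and Tgfb3 from 5.78, 5.89 and 6.10 CPM to 8.41, 8.27 and 7.54 CPM. On this scale Ltbp2 went farthest from the fibroblast markers. Tgfb2, Fst and Tgif1 overlapped between the groups, and Ltbp3, Tgfbr1, Tgfbr2, Smad1, Bmp4 and Skil were lower in all injured libraries. The marker sum itself rose, from a mean of 1075 CPM in WT sham to 3428 CPM in WT IR. A gene that rose by less than this sum is lower on this scale by arithmetic. The activated fibroblast marker sum rose from a mean of 160 CPM to 1016 CPM, and the same arithmetic applies there. How many of all genes do the same was not counted on either scale. The number of members turned with the marker list. Per 1000 CPM of the activated fibroblast markers, only 1 of the 12 members, Ltbp2, stayed higher without overlap (8.46, 8.59 and 7.09 CPM in WT sham, 43.7, 44.3 and 40.3 CPM in WT IR), 2 overlapped and 9 were lower. Fstl1 was then lower after injury, from 273, 296 and 366 CPM to 258, 226 and 222 CPM, and Tgfb3 overlapped, with 34.0, 41.3 and 48.7 CPM in WT sham and 36.6, 26.9 and 23.6 CPM in WT IR.

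**Figure D4:**
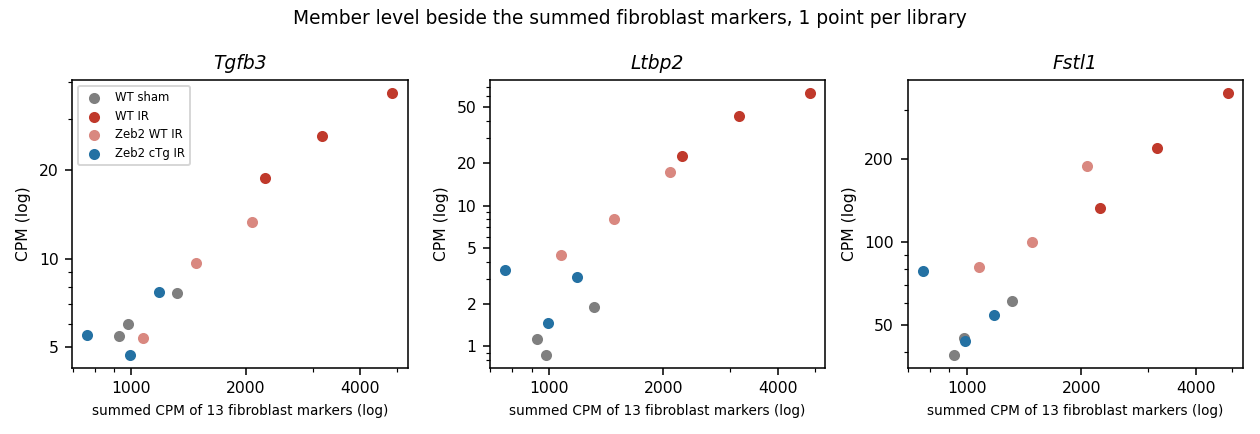
CPM of Tgfb3, Ltbp2 and Fstl1 against the summed CPM of 13 fibroblast markers, both on log axes, with 1 point per library and colours for the 4 groups. The 3 WT IR libraries, with marker sums of 2243 to 4869 CPM, lie at the upper right in each plot, and the tables were normalized separately.

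The gene lists around the members changed unevenly. Of 20 textbook TGF-beta target genes, 19 rose, 1 fell and the median log2 fold change was 1.98, with 9 to 19 higher when a library was left out. The largest rises by p-value were those of the matrix proteins Comp (0.378, 0.552 and 0.524 CPM to 21.1, 28.3 and 60.9 CPM, log2 6.22) and Cilp (6.58, 6.44 and 5.94 CPM to 65.3, 137 and 214 CPM, log2 4.45), followed by the protease inhibitor Timp1 (log2 2.76) and the matricellular Ccn2 (log2 2.24). The gene that fell was Acta2, the smooth muscle actin of myofibroblasts, from 43.8, 52.7 and 39.1 CPM to 34.4, 31.1 and 26.1 CPM (log2 -0.57, edgeR adjusted p = 0.0163). The fibroblast marker lists also hold 10 of these 20 genes, and the 10 that they do not hold all rose. Of these, Cdkn2b reached the filter's minimum in 0 of 3 WT sham libraries and in all 3 WT IR libraries. It was tested only because it was high after injury, so its rise is no separate evidence in either count.

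Of 15 textbook BMP target genes, 10 could be tested, 1 rose and 3 fell, with a median of -0.18. Id1, the classical BMP-Smad target, fell from 9.61, 9.90 and 10.4 CPM to 5.28, 4.07 and 4.85 CPM (log2 -1.08 ± 0.12, edgeR adjusted p = 0.00208), and Hey1 (-0.79) and Gata2 (-0.73) fell with it. Id2 went the other way, from 3.74, 2.94 and 3.43 CPM to 5.66, 10.6 and 16.4 CPM (log2 1.68, edgeR adjusted p = 0.0106). With the cardiomyocyte marker size factors the median of this list was 0.11, with 2 genes higher and 1 lower.

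Among 17 tested antagonists and activators outside the members, 10 rose and 1 fell, led by Bgn (log2 1.64), Dcn (1.47), Fbn1 (1.52) and Thbs1 (1.96), matrix proteins that bind TGF-beta or its latent complex. When a library was left out, 4 to 10 of this list rose. Dcn is also one of the fibroblast markers and Thbs1 one of the TGF-beta target genes above, so their rises are not separate evidence. In this list, 1 tested gene reached the filter's minimum in 1 of 3 WT sham libraries and in all 3 WT IR libraries, so it was tested only through the injured group. The single gene that fell was the integrin subunit Itgb6, whose integrin activates latent TGF-beta (log2 -0.64, edgeR adjusted p = 0.0182). Of 7 tested receptors and co-receptors, the BMP co-receptors Rgma (-0.94) and Hfe2 (-0.88) fell and Cd109, a co-receptor that dampens TGF-beta signalling, rose (1.25). Of 9 tested ligands and carriers, Bmp1, a protease of procollagen (0.94), and Gdf6 (1.78), which was at the filter's minimum in 1 of 3 sham libraries, rose and the inhibin subunit Inha (-1.10) fell. Of 16 intracellular regulators, Pmepa1 (0.76), also one of the TGF-beta target genes above, rose and the ubiquitin ligase Smurf1 (-0.37) and the kinase partner Tab1 (-0.43) fell.

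Between Zeb2 WT IR and the libraries labelled Zeb2 cTg IR, 1 of 35 members tested passed, Mstn, which was higher. The percentages over all 13018 genes tested were 2.14% higher and 1.51% lower (edgeR, adjusted p under 0.05), and 0 members were lower. The median of the members was -0.03 beside 0.01 for all genes. Groups did not overlap for 4 tested members that were higher, against 13.4% of all genes, and for 9 that were lower, against 12.8% of all genes. Mstn among the former and Fst among the latter entered the test only through the group in which they were high.

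Mstn (ENSMUSG00000026100, chr1:53061640-53068079), myostatin, the ligand that limits muscle growth, had 0.147, 0.445 and 0.133 CPM in Zeb2 WT IR and 1.17, 1.18 and 0.927 CPM in the libraries labelled Zeb2 cTg IR. Its rise was 4.57-fold (log2 2.19 ± 0.44, edgeR adjusted p = 0.0308) on 4 to 33 counts per library. Mstn reached the minimum of the filter on low counts in 1 of 3 Zeb2 WT IR libraries and in all 3 of the others, so it was tested only because it was high in them, and a gene that enters in this way had to differ. It passed in only 2 of 6 fits without a library, those without Zeb2 WT IR replicate 2 or Zeb2 cTg IR replicate 2, with adjusted p of at most 0.147 in the others. Its promoter run above held 2 matches to CAGAC and none to the E-box. Gdf15, with 0.0367, 0 and 0 CPM in Zeb2 WT IR and 0.126, 0.458 and 0.309 CPM in the other group, did not overlap between the groups but had at most 12 counts and was not tested, and Inhba, with 1 to 8 counts, was not tested either.

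Several members that rose in WT IR had lower values in the libraries labelled Zeb2 cTg IR without passing. Ltbp2 had 8.07, 4.45 and 17.5 CPM in Zeb2 WT IR and 1.47, 3.51 and 3.09 CPM in the other group (log2 -1.89, 95% interval -2.95 to -0.82, edgeR adjusted p = 0.0598). Fstl1 had 100, 81.4 and 188 CPM against 43.8, 78.7 and 54.3 CPM (log2 -1.06, 95% interval -1.77 to -0.36, edgeR adjusted p = 0.0877). Tgfbr1 had 22.04, 25.01 and 31.9 CPM against 14.2, 21.3 and 15.3 CPM (log2 -0.64, edgeR adjusted p = 0.0912). The groups were apart for all 3 genes, with Zeb2 cTg IR replicate 2 nearest to the wild-type libraries. Fst (log2 -1.49, edgeR adjusted p = 0.167) and Smad1 (-0.38, 0.158) also had groups that did not overlap. Fst reached the filter's minimum in all 3 Zeb2 WT IR libraries and in 1 of the 3 others. It was thus tested only because it was high in Zeb2 WT IR, and a gap between its groups had to be likely. Without Zeb2 cTg IR replicate 2, Ltbp2, Fstl1, Tgfbr1 and Smad5 passed as lower and Eng as higher, with adjusted p of 0.0284, 0.0213, 0.0123, 0.0458 and 0.0105, all in edgeR. That fit dropped the library nearest to the wild-type ones for Ltbp2, Fstl1 and Tgfbr1. What the fits without each of the other libraries gave for these genes is not listed here. Of the 8 other settings, Ltbp2 passed in 5 (adjusted p of 0.0436 with the cardiomyocyte marker size factors, 0.0360 after GC correction, 0.0220 with the replicate block, 0.0458 with both, and without the filter). Tgfbr1 passed in 3 (DESeq2, 0.0324, the block, 0.0324, and no filter, 0.0190) and Fstl1 in 2 (the block, 0.0461, and no filter, 0.00103).

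Eng was at 18.8, 12.5 and 12.3 CPM in Zeb2 WT IR and at 27.3, 17.4 and 30.3 CPM in the libraries labelled Zeb2 cTg IR (log2 0.78 ± 0.23, edgeR adjusted p = 0.0910), with groups that overlapped. DESeq2 gave it an adjusted p of 0.0206 and the replicate block in edgeR 0.0231, and after GC correction the log2 fold change was 0.39 (edgeR adjusted p = 0.0897). The Smads Smad4 (log2 -0.26), Smad5 (-0.33) and Smad9 (-0.53), and the receptor Acvr1 (-0.31), were lower in every library labelled Zeb2 cTg IR than in every Zeb2 WT IR library and did not pass, with edgeR adjusted p between 0.139 and 0.250. Ltbp1 (0.23), Tgfbr2 (0.22) and Ski (0.38) were higher in the same way and did not pass. Ltbp4 had 26.2, 10.4 and 17.3 CPM against 29.2, 16.3 and 33.5 CPM (log2 0.55), and after GC correction it stood at 0.01.

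None of the 3 TGF-beta ligand genes passed the threshold in the Zeb2 table (edgeR). Tgfb3 had 9.65, 5.34 and 13.4 CPM in Zeb2 WT IR and 4.69, 5.50 and 7.67 CPM in the other group (log2 -0.66, 95% interval -1.36 to 0.03, edgeR adjusted p = 0.226). Tgfb2 (log2 0.25, 95% interval -0.31 to 0.81) and Tgfb1 (0.11, -0.46 to 0.68) overlapped as well. Per kb, Tgfb3 made up 72.3%, 58.6% and 75.1% of the 3 ligand genes in Zeb2 WT IR and 55.4%, 48.6% and 64.2% in the other group, and the groups overlapped. The remaining members, Ltbp3 (-0.10), Bmp2 (-0.12), Bmp4 (0.06), Bmp6 (0.43), Inhbb (0.33), Tgfbr3 (0.13), Bmpr1a (0.07), Bmpr2 (-0.06), Acvr2a (-0.21), Acvrl1 (0.21), Smad2 (-0.14), Smad3 (-0.03), Smad6 (0.06), Smad7 (0.33), Fstl3 (0.63), Skil (-0.29) and Tgif1 (-0.27), had overlapping groups and edgeR adjusted p of at least 0.266, the values in brackets being log2 fold changes.

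Of 19 tested TGF-beta target genes, 4 were lower and 1 was higher in Zeb2 cTg IR as labelled, with a median of -1.34 and 1 to 8 lower when a library was left out. Lox, which cross-links collagen, had 15.04, 15.2 and 32.7 CPM in Zeb2 WT IR and 2.47, 3.59 and 2.95 CPM in the other group (log2 -2.80 ± 0.32, edgeR adjusted p = 0.00325). The collagen gene Col3a1 (-1.88) and the matrix glycoprotein Tnc (-2.83) were lower too, as was Col1a2 (-1.39, edgeR adjusted p = 0.0497). Acta2 was higher, from 20.2, 13.8 and 16.7 CPM to 57.2, 39.8 and 64.5 CPM (log2 1.67 ± 0.20, edgeR adjusted p = 0.00463). All 5 of these genes stand on the fibroblast marker lists, and of the 9 tested targets that do not, 0 passed in edgeR's quasi-likelihood test. The co-receptor Cd109 (-1.22) and the integrin subunit Itgb8 (-1.24), of an integrin that activates TGF-beta, were lower, and Bambi, a pseudoreceptor and BMP target, was higher (0.64, edgeR adjusted p = 0.0484). Of the tested ligands and carriers (7) and intracellular regulators (16) outside the members, 0 passed.

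The summed fibroblast markers had a lower mean in the libraries labelled Zeb2 cTg IR, but the groups overlapped and the members did not follow the sum in every library. The sum was 1482, 1075 and 2078 CPM in Zeb2 WT IR and 992, 766 and 1181 CPM in the libraries labelled Zeb2 cTg IR, with 3 of 13 markers lower. Zeb2 WT IR replicate 3 had the highest sum of its group and the highest level for 10 of the 12 members that rose in WT IR. Zeb2 cTg IR replicate 2, in contrast, had the lowest sum of its group but its highest Ltbp2, Fstl1 and Tgfbr1. The activated fibroblast markers summed to 309, 195 and 615 CPM against 134, 190 and 174 CPM, with 4 lower and 1 higher. Macrophage markers summed to 185 to 258 CPM against 191 to 219 CPM and endothelial markers to 438 to 496 CPM against 403 to 495 CPM. In the same order, smooth muscle and pericyte markers summed to 960 to 1130 CPM against 912 to 1096 CPM, T and B cell markers to 1.619 to 1.87 CPM against 1.18 to 1.68 CPM and epicardial and mesothelial markers to 2.38 to 5.91 CPM against 1.38 to 4.16 CPM, and the cardiomyocyte markers summed to 68325 to 73702 CPM against 76607 to 80954 CPM. Per 1000 CPM of fibroblast markers Ltbp2 was at 5.45, 4.14 and 8.40 CPM in Zeb2 WT IR and at 1.48, 4.59 and 2.62 CPM in the other group, with overlap, whereas Mstn was at 0.0990, 0.414 and 0.0641 CPM against 1.18, 1.54 and 0.785 CPM, without overlap. The part of the cell types in these differences was not tested.

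Levels per length place the members in order. In WT sham, Ltbp4 (12.1 ± 1.41 CPM per kb of exon, SD, n = 3), Bmpr1a (10.8 ± 0.403), Fstl1 (9.85 ± 2.30) and Eng (9.73 ± 0.897) were the most abundant, and these neighbours lay within their spread of each other. In WT IR, Fstl1 came first with 47.4 ± 21.7 CPM per kb, ahead of Ltbp4 (13.6 ± 1.96) and Bmpr1a (11.97 ± 0.220), while Tgfb3 went from rank 17 to rank 4 and Ltbp2 from rank 33 to rank 10 of the 38. In Zeb2 WT IR, Fstl1 (25.1 ± 11.6 CPM per kb) and Bmpr1a (14.01 ± 1.95) led, and in the libraries labelled Zeb2 cTg IR, Bmpr1a (14.7 ± 2.12) and Fstl1 (12 ± 3.64) did, within their spread of each other. The 2 tables also differed between the groups with the same injury and a wild-type genotype: Ltbp4 was at 13.6 ± 1.96 CPM per kb in WT IR and 2.78 ± 1.22 in Zeb2 WT IR, Ltbp2 at 5.23 ± 2.46 and 1.22 ± 0.820, and Tgfb1 at 0.747 ± 0.0854 and 0.280 ± 0.0291. These levels come from tables that were normalized separately and were not tested against each other.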

How the data were processed

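RNA was sequenced from 12 mouse hearts, 3 in each of 4 groups. The authors aligned the single-end reads with STAR (2.4.2a in the submitters' processing notes, which also name HTSeq 0.6.1 and mm10), counted them on Gencode M4 genes and deposited the raw counts in 2 tables of 6 libraries; whether counting used the strand is not given in the sources used here. Groups and replicate numbers came from the labels. Each table was fitted on its own in R 4.3.3 with edgeR 4.0.16: TMM, filterByExpr (minimum count 10, minimum total 15), quasi-likelihood tests, p-values adjusted over all tested genes by Benjamini-Hochberg, threshold 0.05. Symbols, positions and exon lengths are from GENCODE M21 (GRCm38), which named 36429 of the 38293 genes, and promoters from RefSeq. The authors' DESeq was not used. Alternatives were RLE or cardiomyocyte marker size factors, no mitochondrial genes, no filter, a replicate block, a correction for GC content (loess, span 0.5), both, DESeq2 1.42.0, and leaving out each library. The tests were tried on simulated data. No pair of libraries was within sampling noise (chi-square per gene at least 7.50). Named are the members, Zeb2 and, from each gene list, at most the 4 genes that passed with the smallest p in a comparison, with cell type markers only as sums and counts. Acta2 in WT IR, Itgb6, Col1a2 and Cdkn2b fall outside this rule, and they, the printed promoters and the levels per 1000 CPM of either fibroblast marker list were chosen after their values were seen. The members and lists were chosen with earlier results of these data known. With 3 animals a group, edgeR's p-values rest on the spread between these animals, moderated by the spread of the other genes.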

Additional observations from a re-analysis of the deposited data

How the results depend on the processing

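In WT IR against WT sham, the log2 fold changes of the 14 members that passed kept their sign in all 196 values that the alternatives gave, whereas 10 of the 21 others changed sign in at least 1. The main count was 14 members, 12 higher and 2 lower. It lay between 13 and 18 under other settings. With size factors from the cardiomyocyte markers 0 were lower, and with the replicate block and the GC correction 1. Leaving out each library gave 6 to 17 members, 5 to 15 higher and 1 to 3 lower. In the Zeb2 table the main count was 1 higher and 0 lower. It was 2 in all with the cardiomyocyte marker size factors, the GC correction, or the block and GC correction together, each time with 1 lower, 3 with DESeq2 (2 higher, 1 lower) and 6 with no filter (3 higher, 3 lower). Leaving out each library gave 0 to 6 members, 0 to 2 higher and 0 to 4 lower; 14 of the 34 members that did not pass changed sign in at least 1 fit. Under the replicate block the count was 7 in that table (3 higher, 4 lower) and 13 (11 higher, 2 lower) in the other. The numbers do not pair the animals by any label, and the deviations of same-numbered samples correlated at -0.03, 0.01 and -0.01 in the WT table and 0.13, 0.26 and -0.04 in the Zeb2 table, where only number 2 correlated best with its own number. The cause of these changes was not tested. The share of all genes that passed in each setting is not given here. The counts therefore show only how the number of members moved with the setting. Members that reached the filter's minimum, about 10 counts, in fewer than 3 libraries were not tested. Some with lower counts in part of the libraries, such as Mstn in the Zeb2 table, were tested. With 3 animals a group an exact permutation test of a single gene cannot give a p below 0.10.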
